A study of Mus musculus with 6 samples.

Results

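The genes described here build and remodel the extracellular matrix of the liver. They are the collagen and laminin chains, the matrix metalloproteinases (Mmp genes), their tissue inhibitors (Timp genes), the lysyl oxidases and the matrix glycoprotein gene Sparc. Members were chosen by name alone, as genes whose single annotated symbol begins with Col, Lama, Lamb, Lamc, Mmp, Timp or Loxl followed by a digit, or equals Lox or Sparc. The rule found 76 genes with 2581 probe sets, of 16277 genes and 229581 probe sets measured. Of these genes 38 are collagen chains, 7 laminin chains, 21 matrix metalloproteinases, 4 Timp genes, 4 lysyl oxidases (Loxl1 to Loxl4) and 1 is Sparc. Lox itself was not analysed here. The remaining member was listed as Col4a3bp and is now called Cert1. It codes for a ceramide transfer protein and is no matrix component, and its values are given apart. RNA came from whole livers of untreated mice at 1 month of age and was hybridised to 6 mouse exon arrays made by Affymetrix, on which a gene is read by several probe sets. Of the arrays 3 were from SRSF3HKO mice, in which the splicing factor gene Srsf3 is knocked out in hepatocytes, and 3 from WT mice of the same age, littermates by the series title. The labels name neither the promoter that drives the deletion nor the deleted part of the gene, and they leave unsaid whether the WT arrays hold RNA of different mice. The p-values therefore reflect only how far these samples spread.

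The matrix of a healthy liver is sparse. Fibrillar collagens such as types I and III lie in the portal tracts and capsule, and basement membrane chains of collagen IV, collagen XVIII and laminin lie around vessels, bile ducts and, loosely, along the sinusoids. Stellate cells, portal fibroblasts and endothelial cells make most of it, hepatocytes make some, and macrophages supply several of the proteases that degrade it. Metalloproteinases cut matrix proteins, Timp proteins block them, and lysyl oxidases cross-link collagen and elastin. In whole-liver RNA, fewer cells of a type and less RNA per cell cannot be told apart.

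Values are PLIER intensities, and each gene's level is the median over its probe sets of log2(intensity + 16), a scale that understates the change of dim genes. A gene was tested where its mean over the 6 arrays lay above a detection floor of 5.35 on this scale (intensity 24.7), set from receptor genes of smell and taste that liver is not known to express. Every log2 change is SRSF3HKO minus WT, with its SE and 3 arrays per group, and adjusted p-values are limma's over all 11707 genes tested. Fold values are taken on the same scale, with 16 added, so they are smaller than ratios of the printed intensities. The 6 arrays, whose number limits the precision, had median intensities over all probe sets from 75.3 to 89.6. The Y-linked gene Eif2s3y was above the floor on WT replicates 1 and 2 and SRSF3HKO replicate 3 only, so arrays with and without it stood in both groups. At gene level the targeted gene Srsf3 differed by 0.26 ± 0.31 on the log2 scale (limma adjusted p = 0.625), and of its 13 tested probe sets 6 were higher, none was lower by the test and 7 did not pass, with 3 of them negative. Whether these probe sets lie inside the deleted part was not tested. All 11 measured hepatocyte markers of 14 listed were above the floor in at least 1 group, with a summed intensity of 98820 to 101500 in WT and 76520 to 91630 in SRSF3HKO.

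Of the 76 matrix genes 53 were bright enough to test, and 51 of these had both group means above the floor. In livers of SRSF3HKO mice 1 gene rose, the macrophage metalloelastase gene Mmp12, and 4 fell. These were Mmp15, a membrane-anchored metalloproteinase, Col18a1, the collagen of basement membranes that releases endostatin, Sparc, a collagen-binding glycoprotein, and Col3a1, a fibrillar collagen chain. Among all genes tested 6.85% were called higher and 5.03% lower, at a limma adjusted p under 0.05. A negative log2 change was found for 38 of the 53 matrix genes, with a median of -0.14, whereas the median over all genes tested was 0.08 and 4988 of 11707 were negative. The groups of arrays did not overlap for 14 matrix genes that were lower and 3 that were higher in SRSF3HKO. Among all genes tested such separation was found for 14% in the lower and 21.6% in the higher direction. Of 30 tested collagen chains 25 were below 0, most by little. SRSF3HKO replicate 3 was the lowest of the 6 arrays for 16 of the 30 collagens, and for 13.5% of all genes tested. Without it, 31 of 52 tested matrix genes were negative, their median was -0.04, and 1 gene, Mmp15, was called lower. In that fit the median over all 11638 genes tested was 0.1, and 527 of them were called lower. Calls also moved with the WT arrays, with no gene lower without WT replicate 1, and Mmp15 alone without WT replicate 2 or WT replicate 3. Without SRSF3HKO replicate 1 the genes called lower numbered 6, namely Col14a1, Col3a1, Lama1, Mmp15, Mmp19 and Sparc. Over all genes 611 of 11581 were called lower in that fit. With Y-linked signal added as covariate, Mmp15 and Sparc were called lower, among 322 of all 11707 genes tested. Mmp12 was the gene called higher in each of these fits.

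**Figure D1:**
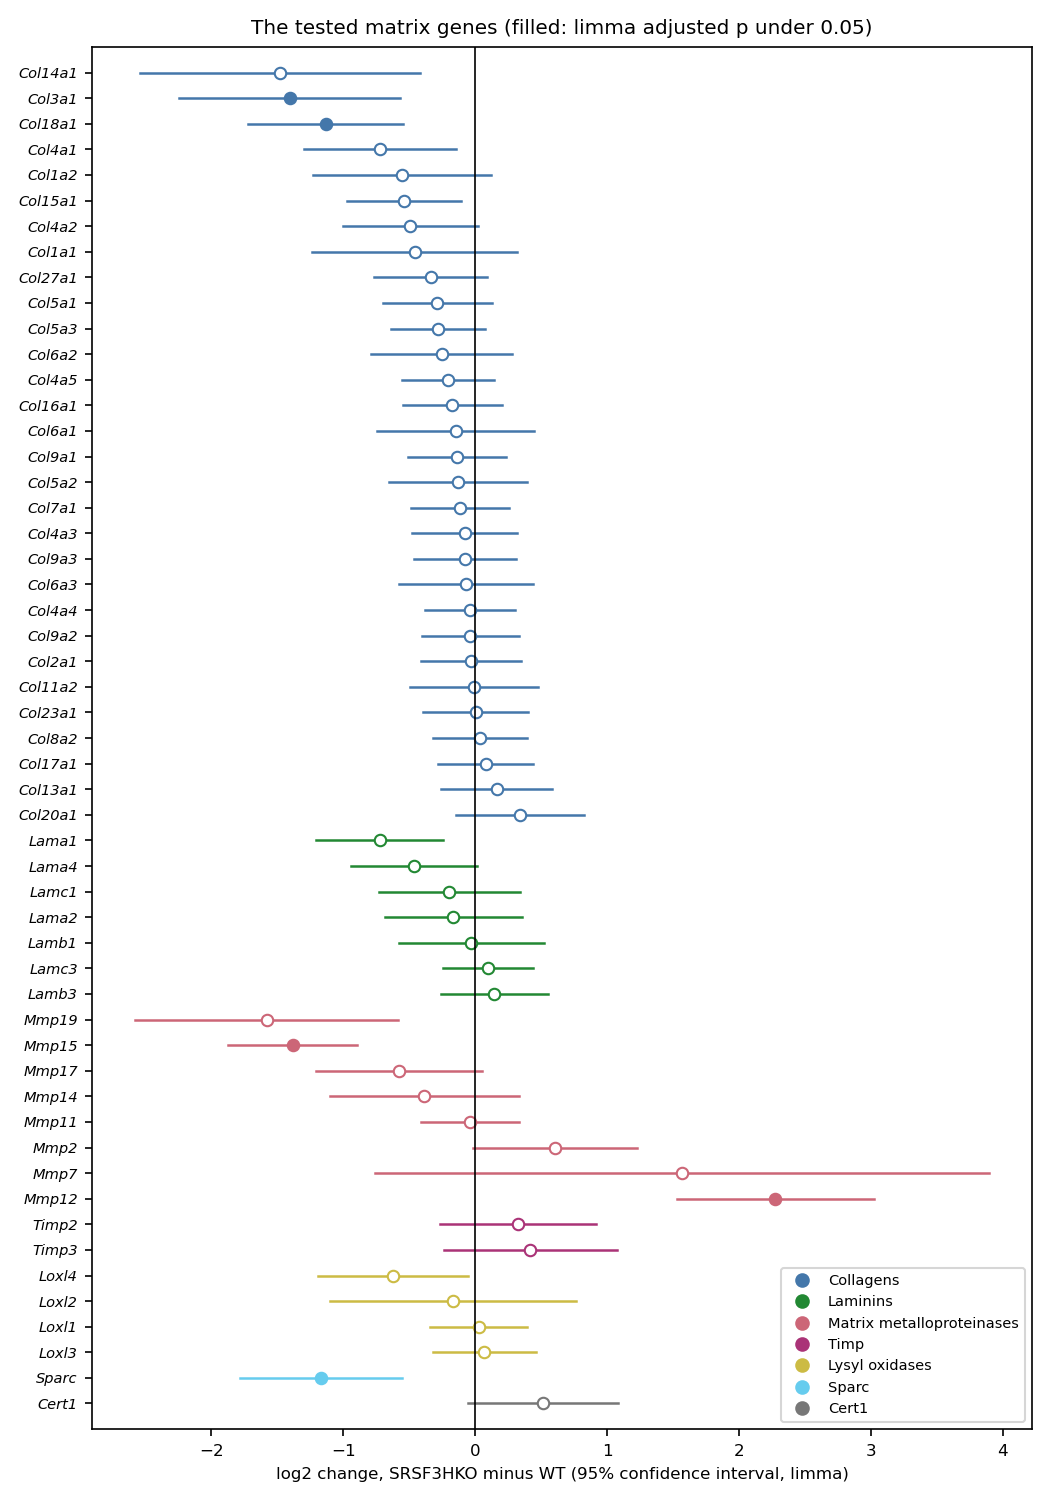
Log2 change (SRSF3HKO minus WT, x axis) of the 53 tested genes, one per row and coloured by family, with the 95% confidence interval from limma; filled points passed limma's adjusted p under 0.05. Mmp12 stands at 2.28 on the right, the 4 genes that fell lie between -1.41 and -1.13, and 25 of the 30 collagens lie left of 0.

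The 5 genes called differ in the sequence before their annotated starts, which is shown because this is where transcription factors assemble. RefSeq (GRCm38.p6) lists promoters for 57 of the 76 genes and for all 5 called ones. Below are the 150 bases before each annotated start, 5′ to 3′ on the gene's strand, with matches on either strand in capitals. The motifs searched were the TATA box, spelled TATAAA, the CCAAT box, whose name gives its letters, the GC box, spelled GGGCGG, and the motif of AP-1 factors, spelled TGANTCA. No match overlapped another. Mmp12 and Col18a1 each have 2 listed starts, and the arrays' values do not tell which was used.
Mmp12, first start, chr9:7344247-7344396, plus strand: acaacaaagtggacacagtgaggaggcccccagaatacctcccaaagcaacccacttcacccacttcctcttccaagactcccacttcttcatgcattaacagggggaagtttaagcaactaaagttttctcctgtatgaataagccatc
Mmp12, second start, chr9:7347224-7347373, plus strand: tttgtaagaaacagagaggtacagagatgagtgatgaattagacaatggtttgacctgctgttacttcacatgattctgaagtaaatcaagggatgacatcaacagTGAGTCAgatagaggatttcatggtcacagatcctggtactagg
Mmp15, chr8:95352146-95352295, plus strand: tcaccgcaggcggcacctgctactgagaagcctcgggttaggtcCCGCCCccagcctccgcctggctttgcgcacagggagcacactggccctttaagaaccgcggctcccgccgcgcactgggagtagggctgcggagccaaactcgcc
Col18a1, first start, chr10:77166531-77166680, minus strand: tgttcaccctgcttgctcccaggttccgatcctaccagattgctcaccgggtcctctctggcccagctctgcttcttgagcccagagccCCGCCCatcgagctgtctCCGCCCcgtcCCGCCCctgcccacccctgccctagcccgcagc
Col18a1, second start, chr10:77113706-77113855, minus strand: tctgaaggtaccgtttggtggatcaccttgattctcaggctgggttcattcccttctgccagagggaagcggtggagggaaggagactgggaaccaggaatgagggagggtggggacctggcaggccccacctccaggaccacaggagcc
Col3a1, chr1:45311388-45311537, plus strand: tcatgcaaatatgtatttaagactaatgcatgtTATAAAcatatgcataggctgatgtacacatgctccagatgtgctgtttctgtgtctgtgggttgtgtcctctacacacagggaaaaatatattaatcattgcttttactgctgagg
Sparc, chr11:55420081-55420230, minus strand: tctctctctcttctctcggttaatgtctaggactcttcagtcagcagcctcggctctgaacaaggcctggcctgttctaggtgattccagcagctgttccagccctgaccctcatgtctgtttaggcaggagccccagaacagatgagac

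A GC box was found 3 times before the first start of Col18a1 and 1 time before the start of Mmp15, all on the opposite strand, and 28.6% of 32851 promoter windows of this length hold one. The TATA motif of Col3a1 begins 117 bases before the annotated start (7.57% of windows hold one), and the AP-1 motif before the second start of Mmp12 begins 44 bases before it (4.24% of windows). The windows of Sparc, the first start of Mmp12 and the second start of Col18a1 held none of the 4 motifs, and no window shown held a CCAAT box, which 24.5% of windows do. G and C made up 68.7% of the Mmp15 window and 68.0% of the first Col18a1 window, against 37.3% for Col3a1. No motif was found in all 4 genes that fell. A match is a description of these letters, not a site of binding.

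Mmp12 was the protease gene that rose. It codes for macrophage metalloelastase, which cuts elastin and is made mainly by macrophages. Its intensity was 11.3, 9.99 and 8.81 on the WT arrays and 173, 55.9 and 131 on the SRSF3HKO arrays. All 3 WT arrays lay below the detection floor and all 3 SRSF3HKO arrays above it, so the gene was tested only because of its level in SRSF3HKO, and it was at least 3.1-fold higher. The log2 change was 2.28 ± 0.33 (limma adjusted p = 0.00637). Of its 13 probe sets 9 were tested, with 7 called higher and none negative. Most of those 7 lay below the probe set floor (intensity 33.3) on every WT array. They too were tested only because of their level in SRSF3HKO, which favours positive changes. The gene's log2 change was 2.47 among arrays with Y-linked signal (2 WT and 1 SRSF3HKO) and 2.23 among those without (1 WT and 2 SRSF3HKO), so each such value here has an arm of 1 array and no test. Probe set 4663656 went from 51.6 ± 7.98 to 932 ± 570 (SD, n = 3; limma adjusted p = 0.00524). The 15 listed macrophage markers were all measured and tested, and Gpnmb was below the floor on average in WT. Their median log2 change was 1.24, with 14 positive and 3 called higher (Gpnmb, Marco and Trem2), against 6.85% of all genes tested. Their summed intensity was 4360 to 4810 in WT and 5510 to 30420 in SRSF3HKO, with the highest value on SRSF3HKO replicate 1, the array on which Mmp12 was also highest. The part of macrophages in the Mmp12 change was not tested. Without that array the Mmp12 difference was 1.98 on the log2 scale (limma adjusted p = 0.00688).

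Mmp15, which codes for a metalloproteinase held in the cell membrane, moved the other way. Its intensity was 210, 175 and 196 in WT and 59.6, 51.0 and 85.7 in SRSF3HKO. The groups were well apart and the drop was 2.61-fold (log2 change -1.38 ± 0.21, limma adjusted p = 0.00842). All 14 of its probe sets were negative and 7 were called lower. Leaving out WT replicate 1 ended the call (limma adjusted p = 0.0541), while the log2 change ranged from -1.56 to -1.25 when each array was left out. Mmp19, a secreted protease of basement membrane proteins, was at 962, 744 and 847 in WT and 488, 119 and 337 in SRSF3HKO. The groups did not overlap, yet the SRSF3HKO arrays were spread widely and the change of -1.58 ± 0.44 did not pass (limma adjusted p = 0.0518), though 4 of its 12 probe sets did. It passed in 6 alternatives, among them leaving out SRSF3HKO replicate 1 or 2 (limma adjusted p = 0.019 and 0.0153).

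The other metalloproteinases gave no call. Mmp2, gelatinase A of stellate cells and fibroblasts, was at 114, 107 and 98.7 in WT and 140, 266 and 131 in SRSF3HKO. Every SRSF3HKO array was above every WT array, but replicate 2 carried much of the difference of 0.60 ± 0.27 (limma adjusted p = 0.182). Mmp14, the membrane protease that activates pro-Mmp2, overlapped between the groups at 357, 294 and 316 against 387, 241 and 150. Its log2 change was -0.39, with a 95% interval from -1.10 to 0.33. Mmp7, matrilysin, a protease of epithelia such as bile ducts, was below the floor on average in WT and reached 723 on SRSF3HKO replicate 2 alone. The other SRSF3HKO arrays had 35.5 and 18.8, within the WT range of 5.22 to 39.4 (limma adjusted p = 0.345). On the same array the summed cholangiocyte markers were at 1236, the highest of the 6, and the part of bile duct cells in that value was not tested. Mmp11 and Mmp17 had log2 changes of -0.04 and -0.58 and overlapped between groups. The remaining 13 metalloproteinases stayed below the floor on average. They include all 4 collagenases (Mmp1a, Mmp1b, Mmp8 and Mmp13) and Mmp9, gelatinase B of neutrophils and macrophages, whose group means of 5.20 and 5.21 on the log2 scale differed by 0.0051.

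**Figure D2:**
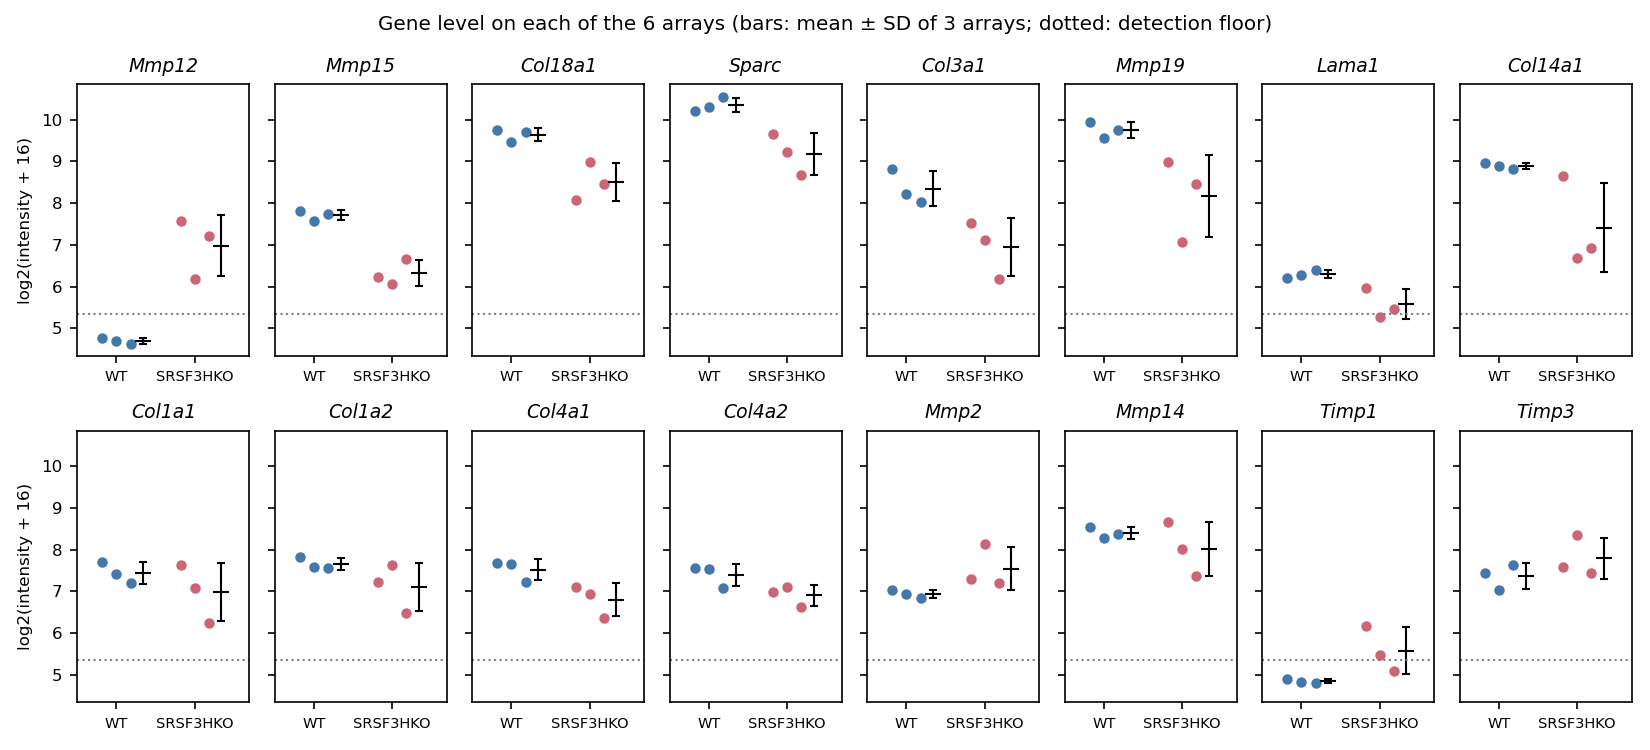
Gene level, log2(intensity + 16) on the y axis, on each of the 3 WT (blue) and 3 SRSF3HKO (red) arrays for 16 matrix genes, with the mean ± SD of the 3 arrays beside the points and the detection floor of 5.35 as a dotted line. Mmp12 lies below the floor on all WT arrays and above it on all SRSF3HKO arrays, the points of the first 8 genes do not overlap between the groups, and SRSF3HKO points are more scattered than WT points.

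Fibrillar collagens, which form the tensile fibres of connective tissue, had 9 of 11 chains tested. All 9 log2 changes were negative, with a median of -0.29 and 1 gene called lower. Col3a1, whose type III collagen accompanies type I in reticular fibres, was at 432, 283 and 243 in WT and 169, 123 and 56.3 in SRSF3HKO. The groups did not overlap, and the fall was 2.65-fold (log2 change -1.41 ± 0.37, limma adjusted p = 0.0434). All 51 tested probe sets of Col3a1 were negative and 11 were called lower. The change was -2.34 among arrays with Y-linked signal and -0.69 among those without, and the call ended with that signal as a covariate (limma adjusted p = 0.0662). It also ended without WT replicate 1, 2 or 3 (0.160, 0.133 and 0.0913) and without SRSF3HKO replicate 3 (0.0753). The same held where no filter or another gene summary was used (0.0517 to 0.0618). When each array was left out, the log2 change of Col3a1 ranged from -1.7 to -1.02.

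The type I collagen chains did not follow to the same degree. Col1a1 was at 192, 155 and 130 in WT and 181, 118 and 60.1 in SRSF3HKO, so the groups overlapped, with SRSF3HKO replicate 3 the lowest. Its log2 change was -0.46, with a 95% interval from -1.24 to 0.32. Its partner Col1a2 was at 211, 176 and 173 in WT and 133, 181 and 73.0 in SRSF3HKO (log2 change -0.55, interval from -1.23 to 0.12). Again SRSF3HKO replicate 3 was the lowest array and replicate 2 lay within the WT range. None of the 49 and 51 tested probe sets of Col1a1 and Col1a2 was called, although 43 and 47 of them were negative. The type V chains, which start fibrils within type I collagen, had small changes. Col5a1 and Col5a3 were at -0.29 and -0.28 with no overlap between the groups, and Col5a2 was at -0.13 with overlap, and none passed. Col2a1 and Col11a2, chains of cartilage, were at -0.03 and -0.01. Col27a1 was at -0.34, and its WT arrays (55.2 to 83.3) lay just above its SRSF3HKO arrays (49.0 to 54.5). Col11a1 and Col24a1 were below the floor.

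Col18a1 was the other collagen that fell. Type XVIII collagen carries heparan sulfate in vascular and epithelial basement membranes, and hepatocytes are a known source of it in liver. Its intensity was 842, 686 and 825 in WT and 253, 488 and 338 in SRSF3HKO. The groups did not overlap, and the fall was 2.19-fold (log2 change -1.13 ± 0.26, limma adjusted p = 0.0285), almost alike among arrays with and without Y-linked signal (-1.13 and -1.19). Of its 46 probe sets 45 were negative and 17 were called lower. That is the highest number among the matrix genes, which differ in how many probe sets they have (Mmp15 had 7 of 14 called lower). Leaving out WT replicate 1, 2 or 3 ended the call (limma adjusted p = 0.121, 0.0893 and 0.107). So did leaving out SRSF3HKO replicate 1 or 3 (0.0534 and 0.063) or adding the Y-linked covariate (0.0619). The log2 change itself ranged from -1.37 to -0.91 when each array was left out, and was -1.16 with the covariate. Col15a1, the other collagen of the same class, made by endothelial and stromal cells, was at 47.1, 43.0 and 65.6 in WT and 36.4, 28.2 and 26.8 in SRSF3HKO. The groups were apart but its log2 change of -0.54 ± 0.19 did not pass (limma adjusted p = 0.100), while 3 of its 27 tested probe sets were called lower.

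Collagen IV chains form the network of basement membranes. All 5 tested chains were negative, with a median of -0.21, and none passed. Col4a1 was at 188, 186 and 133 in WT and 122, 106 and 66.2 in SRSF3HKO. No array of one genotype crossed into the other, and the log2 change was -0.72 ± 0.25 (limma adjusted p = 0.102), with 56 of 60 tested probe sets negative and 2 called lower. Col4a2, which is transcribed from a promoter shared with Col4a1 and pairs with it in the trimer, was at 173, 169 and 120 in WT and 110, 122 and 83.0 in SRSF3HKO. The groups met at their edges, and its change of -0.49 ± 0.22 did not pass (limma adjusted p = 0.186). Among arrays with Y-linked signal, where SRSF3HKO is replicate 3 alone, the differences of Col4a1 and Col4a2 were -1.31 and -0.92, and among those without it -0.20 and -0.05. Col4a3, Col4a4 and Col4a5, chains best known from kidney, were at -0.08, -0.04 and -0.21, and Col4a6 was below the floor.

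Fibril-associated collagens sit on the surface of fibrils. Col14a1, made by fibroblasts and stellate cells, had the largest negative change of the collagens and was not called. Its intensity was 483, 462 and 433 in WT and 383, 86.3 and 105 in SRSF3HKO. All 3 SRSF3HKO arrays were below WT, but replicate 1 was close to it, and the log2 change of -1.48 ± 0.46 did not pass (limma adjusted p = 0.0749). All 50 of its probe sets were negative and 5 were called lower. Without SRSF3HKO replicate 1 it was called, at -2.09 (limma adjusted p = 0.00211), and with array weights too (0.0326). Col16a1 and the type IX chains lay between -0.17 and -0.04, and Col20a1 was at 0.34. The 3 collagen VI chains, which form beaded filaments around cells, did not separate the groups, at -0.15 for Col6a1, -0.25 for Col6a2 and -0.07 for Col6a3. Their 95% intervals reached from -0.74 to 0.45, from -0.79 to 0.28 and from -0.58 to 0.44. The transmembrane collagens Col13a1, Col17a1 and Col23a1 had changes of 0.16, 0.08 and 0.01, and Col7a1, of the anchoring fibrils of skin, was at -0.11.

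Laminins are trimers of 1 alpha, 1 beta and 1 gamma chain that organise basement membranes. All 7 measured chains were tested and none passed. Lama1, an alpha chain of embryonic basement membranes, was at 57.9, 62.0 and 68.1 in WT and 46.7, 22.9 and 28.3 in SRSF3HKO. The groups were apart and the log2 change was -0.72 ± 0.21 (limma adjusted p = 0.0606), with 51 of 53 tested probe sets negative and 4 called lower. It passed in 5 alternatives, which were quantile normalization, median centring, array weights, the mean over probe sets and leaving out SRSF3HKO replicate 1 (limma adjusted p = 0.0206 to 0.0455). Lama4, the alpha chain of vessel walls, overlapped between the groups at 55.2, 62.7 and 78.3 against 57.5, 35.8 and 36.7 (log2 change -0.47, limma adjusted p = 0.182). The common beta and gamma chains Lamb1 and Lamc1 were at -0.03 and -0.20, with 95% intervals from -0.58 to 0.52 and from -0.73 to 0.34. Lama2, Lamb3 and Lamc3 had changes of -0.17, 0.14 and 0.10.

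Sparc binds collagen and guides its assembly, and in liver it is made by stellate and endothelial cells. Its intensity was 1174, 1248 and 1480 in WT and 796, 582 and 390 in SRSF3HKO. The groups did not overlap, and it fell 2.25-fold (log2 change -1.17 ± 0.27, limma adjusted p = 0.0301), with -1.59 among arrays with Y-linked signal and -1.10 among those without. All 12 of its probe sets were negative and 3 were called lower. The Y-linked covariate kept the call (limma adjusted p = 0.0242), but it ended without WT replicate 1, 2 or 3 (0.101, 0.107 and 0.114). It also ended without SRSF3HKO replicate 3 (0.053), and with the mean or median polish over probe sets (0.0686 and 0.0713). When each array was left out, the log2 change of Sparc ranged from -1.41 to -0.91.

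The inhibitors and cross-linking enzymes gave no call. Timp3, the inhibitor that stays bound to matrix, was at 157, 115 and 184 in WT and 177, 308 and 157 in SRSF3HKO, which overlapped (log2 change 0.42, 95% interval from -0.24 to 1.08). A single one of its 11 tested probe sets, 5480716, rose from 175 ± 12.2 to 370 ± 77.3 (SD, n = 3; limma adjusted p = 0.0318). Timp2 was at 0.32 with an interval from -0.27 to 0.91. Timp1, the secreted inhibitor induced in injured liver, was below the floor on average and so was not tested. Its level on the log2 scale was 4.90, 4.83 and 4.81 in WT and 6.18, 5.47 and 5.09 in SRSF3HKO, so each SRSF3HKO array was above each WT array. With no filter its log2 change was 0.73 ± 0.26 (limma adjusted p = 0.129). SRSF3HKO replicate 1, which had the highest macrophage marker sum, was the highest array for Timp1 too, and this was not tested further. Timp4 was also below the floor. Loxl1 and Loxl3 differed by 0.03 and 0.07, and Loxl2 ranged from 28.4 to 116 within SRSF3HKO, wider than between genotypes. Loxl4 was at -0.62 ± 0.25 with a slight overlap of its groups (limma adjusted p = 0.140).

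Cert1, the member by name alone, moves ceramide from the endoplasmic reticulum to the Golgi. Its intensity was 420, 332 and 411 in WT and 412, 749 and 561 in SRSF3HKO. The gene-level change of 0.51 ± 0.25 did not pass (limma adjusted p = 0.213), although 8 of its 22 probe sets were called higher, with log2 changes from 0.84 to 1.69, and 2 were negative.

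At the level of single probe sets, 1614 of the 2581 matrix probe sets were above their floor of 5.62, and 18 were called higher and 67 lower. Among all 157833 probe sets tested 4.73% were called higher and 4.32% lower. The lower calls came from 19 genes and 48 of them from collagens, chiefly Col18a1 and Col3a1. Of the higher calls 8 belonged to Cert1 and 7 to Mmp12, and the others were 1 each in Lamc3, Timp3 and Col12a1. The Lamc3 and Col12a1 probe sets and most of those of Mmp12 had WT means below the probe set floor. Their level in SRSF3HKO alone let them be tested. Col12a1 was the only gene with calls in both directions, 1 each. The calls moved with the arrays, with 1 lower call without WT replicate 1, 9 without WT replicate 2 or WT replicate 3, 20 without SRSF3HKO replicate 3, and 141 and 136 without SRSF3HKO replicates 1 and 2. The higher calls numbered 7 to 9 without any 1 WT array, and 7 without SRSF3HKO replicate 3. The 4.73% and 4.32% belong to the fit of all 6 arrays. No share over all probe sets is given for the other fits, so their counts do not single out matrix genes.

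**Figure D3:**
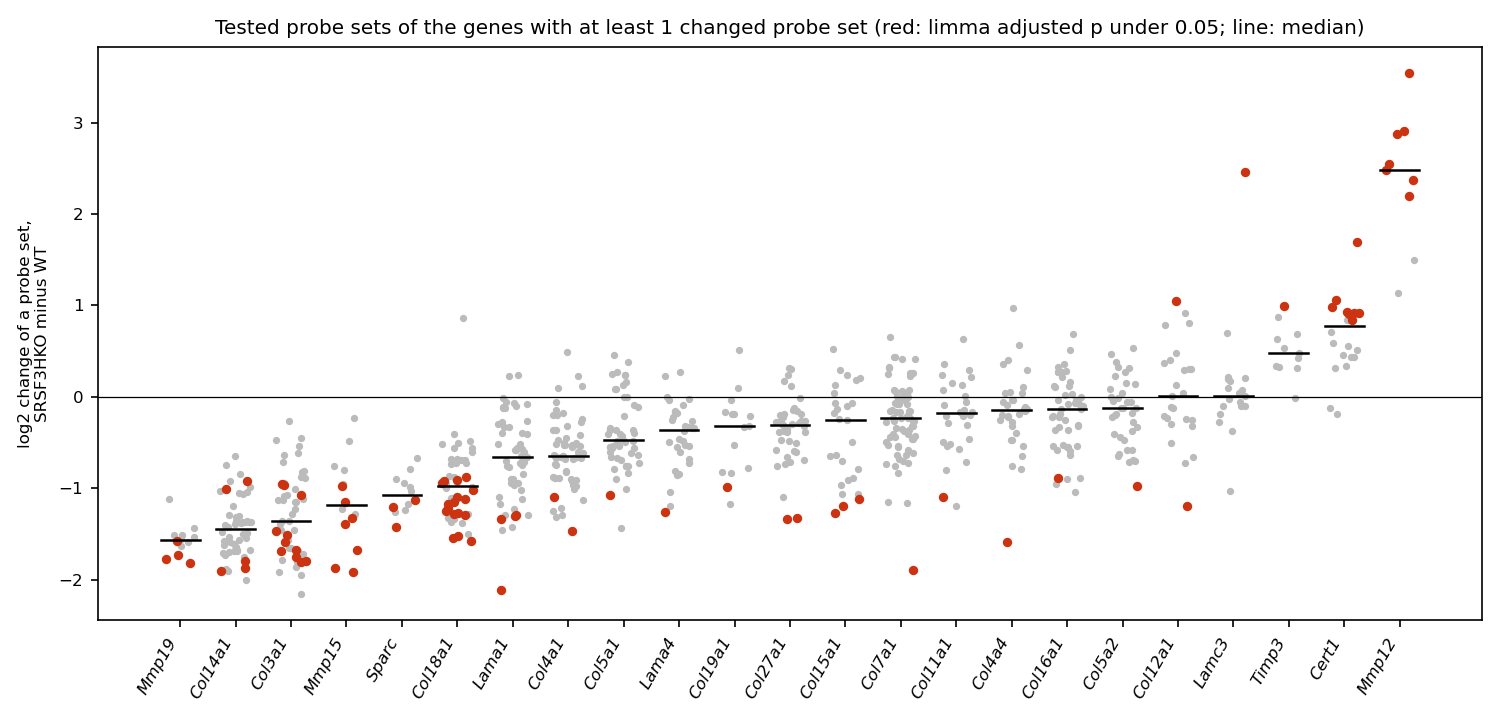
Log2 change (SRSF3HKO minus WT, y axis) of every tested probe set of the 23 matrix genes with at least 1 called probe set, ordered by the gene's median (black line), with called probe sets in red and the horizontal scatter random. Nearly all probe sets of Mmp19, Col14a1, Col3a1, Mmp15, Sparc and Col18a1 lie below 0, those of Mmp12 above 0, and Lamc3 shows 1 probe set at 2.46 far above its others.

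Exon usage, how a probe set moves against the rest of its gene, was examined because SRSF3 is a splicing factor. Of 1602 matrix probe sets in 65 genes, limma's diffSplice called 9, in 8 genes, and 0.664% of all 142862 probe sets tested were called. A splicing index per array, tested as well, called none of them and 0.0168% of all probe sets. The diffSplice test pools the spread of a gene's probe sets, and on simulated data with unequal spreads it also called unchanged probe sets, so these calls are given with their values and no more. The largest was in Lamc3, a laminin gamma chain. Probe set 5441314 was at 12.9, 29.5 and 36.0 in WT and 253, 185 and 195 in SRSF3HKO, and rose by 2.46 ± 0.29 on the log2 scale (limma adjusted p = 0.00251). Its WT mean of 26.1 lay below the probe set floor (intensity 33.3), so it was tested only because of its level in SRSF3HKO. The groups were far apart, whereas the gene level of Lamc3 differed by 0.10. The usage change of this probe set was 2.49 (diffSplice adjusted p = 1.77e-10), and the splicing index did not call it (adjusted p = 0.0758). It was called in all 14 alternatives of diffSplice in which it was tested. Here and below, these alternatives all pool the spread in the same way, so agreement among them does not answer that weakness. A second probe set of Lamc3, 5089208, was used less (usage change -1.19, diffSplice adjusted p = 0.00705).

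In Col18a1, probe set 4928199 went against the gene. It was at 53.1, 18.3 and 47.6 in WT and 118, 78.4 and 55.2 in SRSF3HKO, above WT on each array while 45 of 46 probe sets were negative. In WT this probe set lay near the probe set floor (intensity 33.3) and below it on replicate 2, while the gene was at 686 to 842. The probe set's own change of 0.86 ± 0.36 did not pass (limma adjusted p = 0.172). Its usage change was 1.86 (diffSplice adjusted p = 9.87e-05), called in all 14 alternatives in which it was tested. How far that value only restates the fall of the brighter probe sets was not tested. Probe set 4576565 of Col7a1 was at 139, 193 and 121 in WT and 51.9, 43.4 and 5.37 in SRSF3HKO (usage change -1.67, diffSplice adjusted p = 0.000436). Probe set 5608109 of Col4a4 fell from 673 ± 169 to 224 ± 105 (SD, n = 3; usage change -1.47, diffSplice adjusted p = 0.00535). Both separated the groups in genes whose level did not, and each was called in 13 alternatives, of 14 and 15 in which it was tested. The remaining calls were in Cert1 and Col11a2, used more, and in Lama1 and Col2a1, used less, with diffSplice adjusted p-values of 0.0192 to 0.0401, and each ended in at least 6 alternatives. The Col11a2 probe set was below the probe set floor on every WT array, so its level in SRSF3HKO alone let it be tested. Which exon a probe set covers was not analysed here.

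Genes that make, sense or process matrix were taken from 5 further lists, beside which 6.85% of all genes tested were called higher and 5.03% lower. Of 17 tested genes for collagen chain processing 1 fell, Bmp1, the protease that removes the C-terminal propeptide of fibrillar procollagens (log2 change -1.32 ± 0.21, limma adjusted p = 0.00876), and none rose. The median was -0.19, with 13 negative and 4 positive. The protease gene Ctsk, below the floor on average in WT, was at 1.00 and did not pass (limma adjusted p = 0.0583). Among 19 genes of the TGF-beta axis, the main signal for matrix synthesis, 2 rose and 1 fell, with a median of 0.29. Ccn2, the connective tissue growth factor gene, rose by 1.64 ± 0.29 and Smad2, a signal transducer, by 0.72 ± 0.18, and Ltbp4, which stores latent TGF-beta in matrix, fell by 1.05 ± 0.20 on the log2 scale (limma adjusted p = 0.0126, 0.0368 and 0.0161). Tgfbr2, a TGF-beta receptor gene, was at 0.78 (limma adjusted p = 0.0501). None of 26 other matrix protein genes passed, with a median of -0.12. Dcn, the small proteoglycan decorin of stellate cells and fibroblasts, was at 0.76, Spp1, osteopontin, at 1.56, and the plasma matrix proteins Vtn and Fn1 at -0.68 and -0.47 (limma adjusted p = 0.0724, 0.0932, 0.0561 and 0.120). Of 18 matrix receptor genes 1 fell, the integrin gene Itga8 of stellate cells (-0.78 ± 0.19, limma adjusted p = 0.0388). Of 19 genes for the control of matrix proteases 2 fell. They were the plasma antiplasmin gene Serpinf2 (-0.83 ± 0.15) and the plasminogen gene Plg (-0.64 ± 0.17), both made by hepatocytes (limma adjusted p = 0.0133 and 0.0492). The protease genes Ctsl and Ctss were at 1.00 and 1.63 and did not pass (limma adjusted p = 0.0613 and 0.0692). Of the 19 genes 8 were positive and 11 negative. Adding the Y-linked covariate ended the calls of Smad2, Itga8 and Plg (limma adjusted p = 0.0935, 0.0619 and 0.118), and those of the other 4 genes held.

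Markers of the cells that make matrix were set beside these changes. Over all genes tested, 6.85% were called higher, 5.03% lower, and 42.6% had a negative change. Of 15 tested stellate cell markers 1 rose (Pdgfra, 1.57 ± 0.37) and 1 fell (Ngfr, -0.83 ± 0.22; limma adjusted p = 0.0339 and 0.0438), with a median of -0.08. Their summed intensity was 1813 to 2460 in WT and 1894 to 2839 in SRSF3HKO, and no measured marker was below the floor in both groups. Portal fibroblast and smooth muscle markers gave no call among 10 tested, with sums of 527 to 816 in WT and 474 to 1083 in SRSF3HKO, and Cnn1 was below the floor. Of 16 endothelial markers 2 fell, the growth factor receptor genes Flt4 (-0.998 ± 0.22) and Kdr (-0.87 ± 0.23; limma adjusted p = 0.026 and 0.0452), and 13 were negative, with a median of -0.41. On SRSF3HKO replicate 3, the lowest array for 16 collagens, the stellate sum was 1894, within the WT range, while the portal fibroblast and smooth muscle sum was 474 and the endothelial sum 3462, both below it. Endothelial sums were 3980 to 5322 in WT and 2570 to 4739 in SRSF3HKO, with all 16 tested. The lowest of these sums was on SRSF3HKO replicate 2, which was the lowest array for 5 of the 30 tested collagens. Sparc, Col4a1, Col15a1 and Col18a1 are made in part by endothelial cells, and the part of these cells in their values was not tested. Of 9 tested cholangiocyte markers 2 rose (Prom1 and Krt23), with sums of 369 to 771 in WT and 724 to 1236 in SRSF3HKO, and Cftr was below the floor. Of 6 mesothelial markers, from the cells that cover the liver surface, 1 fell (Upk3b, -0.92 ± 0.17, limma adjusted p = 0.0135), with sums of 295 to 338 against 209 to 231. Neutrophil and lymphocyte markers gave no call among 4 and 6 tested. Their sums were highest on SRSF3HKO replicate 1, at 560 and 703, against at most 200 and 341 in WT, and Mpo, Cxcr2, Ltf, Camp and Ngp, and Cd4, Ms4a1 and Klrb1c, were below the floor. All 11 tested hepatocyte markers were negative, with a median of -0.26, and 2 were called lower, Serpina1e and Fga (limma adjusted p = 0.0331 and 0.0429). The same covariate ended the calls of Pdgfra, Ngfr, Flt4, Kdr, Krt23, Marco, Trem2 and Fga (limma adjusted p = 0.0513 to 0.0969).

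**Figure D4:**
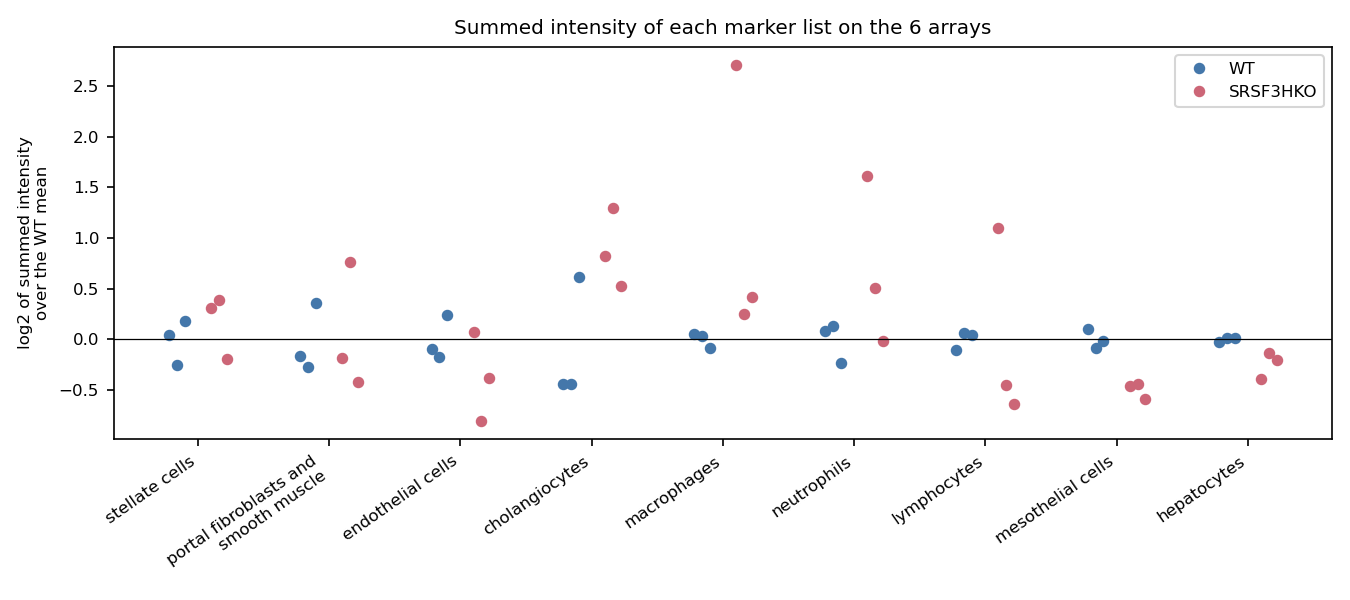
Summed intensity of each cell type's markers on the 3 WT (blue) and 3 SRSF3HKO (red) arrays, as log2 of the sum over the WT mean of that list (y axis). SRSF3HKO replicate 1, the leftmost red point, stands above the other arrays for macrophage, neutrophil and lymphocyte markers. Stellate sums overlap between the genotypes, whereas macrophage, mesothelial and hepatocyte sums do not.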

How the data were processed

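Liver RNA was measured on 3 SRSF3HKO and 3 WT arrays. The authors obtained values for core exons with PLIER and Affymetrix Expression Console, as the submitters' processing notes name them. The deposited values are linear PLIER intensities per probe set, and versions and background step are not given in the sources used here. Groups follow the genotype label, and replicate numbers only name arrays. Probe sets were joined to genes by the platform annotation (208397 with 1 gene, 3965 with several, 17219 with none), and of 16299 symbols 2124 were updated through RefSeq and 43 kept as listed. Gene level was the median over probe sets of log2(intensity + 16). Features entered a test if their mean lay over the 90th percentile of 1044 receptor genes for taste, smell and pheromones. SRSF3HKO was compared with WT by limma 3.58.1 in R 4.3.3, using eBayes with a trend, Benjamini-Hochberg adjustment over all features and a threshold of 0.05. Exon usage was tested with diffSplice (genes with at least 3 tested probe sets) and a splicing index. Functions were tested on simulated data. Figures were made in matplotlib 3.10.9 (Python 3.11.15). All matrix genes were named by the rule, and from other lists called genes and up to 4 with the lowest adjusted p. The members, lists and tests were chosen with earlier results of these data known. The alternatives tried were other pseudocounts (1 and 64), median centring, quantile normalization, no filter or one at the median, other gene summaries, no trend, robust eBayes, array weights, a threshold of 0.01, the Y-linked signal (Eif2s3y) as a covariate and leaving out each array. No batch is given in the labels.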

Additional observations from a re-analysis of the deposited data

How the results depend on the processing

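Matrix genes called higher numbered 0, not 1, where the filter was the median of all genes, which left Mmp12 untested, and 1 in every other alternative. Genes called lower numbered 7 with array weights, 1 at a threshold of 0.01, 2 with the Y-linked covariate and 0 to 6 when each array was left out. Probe sets called higher numbered 11 with the median filter, 7 at 0.01, 10 with the covariate and 7 to 23 when each array was left out. Probe sets called lower numbered 28 without a filter, 225 with array weights, 4 at 0.01, 15 with the covariate and 1 to 141 when each array was left out. For these probe set counts no share over all probe sets is given in the alternatives. Exon usage calls numbered 5 with the median filter, 5 at 0.01, 0 by the splicing index and 4 to 20 when each array was left out. Where no value above shows it, the cause was not tested.

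Small changes that did not pass turned sign in some alternatives. With quantile normalization Col23a1 was at -0.047, Col8a2 at -0.012 and Loxl1 at -0.027. With median centring they were at -0.048, -0.017 and -0.027. With array weights Col11a2 was at 0.0037 and Loxl3 at -0.0031. With the Y-linked covariate Col11a2 was at 0.0061, Col23a1 at -0.0049 and Loxl3 at -0.0089. With the mean over probe sets Col13a1 was at -0.071, Col17a1 at -0.014 and Col8a2 at -0.037. With the median over probe sets above the floor Col17a1 was at -0.044, Col23a1 at -0.10, Col4a5 at 0.11, Col8a2 at -0.070, Lamc3 at -0.017 and Loxl3 at -0.064. With median polish Col13a1 was at -0.079 and Col8a2 at -0.023. When each array was left out, the range was -0.14 to 0.14 for Col11a2, -0.015 to 0.14 for Col17a1, -0.10 to 0.071 for Col23a1, -0.075 to 0.050 for Col2a1, -0.17 to 0.028 for Col4a3, -0.29 to 0.11 for Col5a2, -0.38 to 0.11 for Col6a1 and -0.24 to 0.11 for Col6a3. It was -0.030 to 0.097 for Col8a2, -0.086 to 0.0048 for Col9a2, -0.21 to 0.20 for Lamb1, -0.014 to 0.074 for Loxl1, -0.61 to 0.18 for Loxl2, -0.010 to 0.18 for Loxl3 and -0.092 to 0.069 for Mmp11.

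Over all genes 802 were higher and 589 lower. They numbered 126 and 170 at 0.01, 355 and 322 with the covariate, and 1265 and 892 with array weights. Leaving out WT replicate 1, 2 or 3 gave 114 and 130, 106 and 168, and 222 and 212. Leaving out SRSF3HKO replicate 1, 2 or 3 gave 574 and 611, 1383 and 772, and 540 and 527. No paired analysis was possible because the labels give no replicate numbers shared between the genotypes. Signal near the background limits the 23 untested genes, among them all collagenases.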
